A study of Mus musculus with 6 samples.

Results

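The 34 genes described here take fatty acids into the cell, activate them, carry them into mitochondria and peroxisomes, oxidise them and make ketone bodies, together with a few genes that the same receptors are known to switch on. They were found by symbol in the expression table of a mouse colon study, where all 34 were among 17778 listed genes, and all 34 passed the filter on low values (at least 0.5 FPKM in at least 3 mice) that left 13520 genes for testing. By role they comprised 3 genes of uptake and binding, 3 of activation, 2 acyl-CoA thioesterases, 4 genes of the carnitine shuttle, 12 of mitochondrial beta-oxidation, 3 of electron transfer, 2 of peroxisomal beta-oxidation, 1 ketone body gene and 4 other targets of the PPAR receptors. RNA came from the colon of 3 obesity-prone (OP) and 3 obesity-resistant (OR) mice, 1 library per mouse. All 6 were wild-type male C57BL/6J mice on a high-fat diet (60% fat) for 16 weeks, 21 weeks old at the end. The groups were set after the feeding by weight gain, OP mice at the upper and OR mice at the lower end, so they are extremes of 1 inbred population and not genotypes, and no mouse on a normal diet is among them. The p-values given here measure the spread between these 6 mice.

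Fatty acids enter a cell through membrane proteins such as CD36, travel on fatty acid-binding proteins and are joined to coenzyme A by acyl-CoA synthetases. The carnitine shuttle then passes them into the mitochondrial matrix, where beta-oxidation shortens them in repeated cycles of dehydrogenation, hydration, dehydrogenation and thiolysis, while peroxisomes shorten very long chains. In the colon the same mitochondrial pathway also burns butyrate made by bacteria, and many of its genes are known targets of PPARα, a nuclear receptor that binds DNA together with RXR.

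Between OP and OR colon, 22 of the 34 fatty acid genes differed by less than 0.25 on the log2 scale, beside 68.8% of all genes. The study's thresholds were an adjusted p below 0.2 with a fold change of at least 1.2 or no more than 0.83. Of the 34, 0 passed them, against 0.0222% of all genes tested. At an unadjusted limma-trend p below 0.05, 0 members were higher in OP mice, against 0.503% of all genes, and 2 were lower, *Cd36* and the mitochondrial thiolase *Acaa2*, against 3.53%. All OP mice lay above all OR mice in 1 member, the lipid droplet gene *Plin2*, against 1.63% of all genes, and below them in 2, again *Cd36* and *Acaa2*, against 6.81%. In the other 31 members the groups overlapped. The largest difference was that of *Cd36*, which had 5.10 ± 2.87 FPKM (SD, n = 3) in OP mice and 12.4 ± 2.08 FPKM (SD, n = 3) in OR mice. Among single mice, OP mouse 2 held the lowest value of 15 members and the highest of 0.

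**Figure D1:**
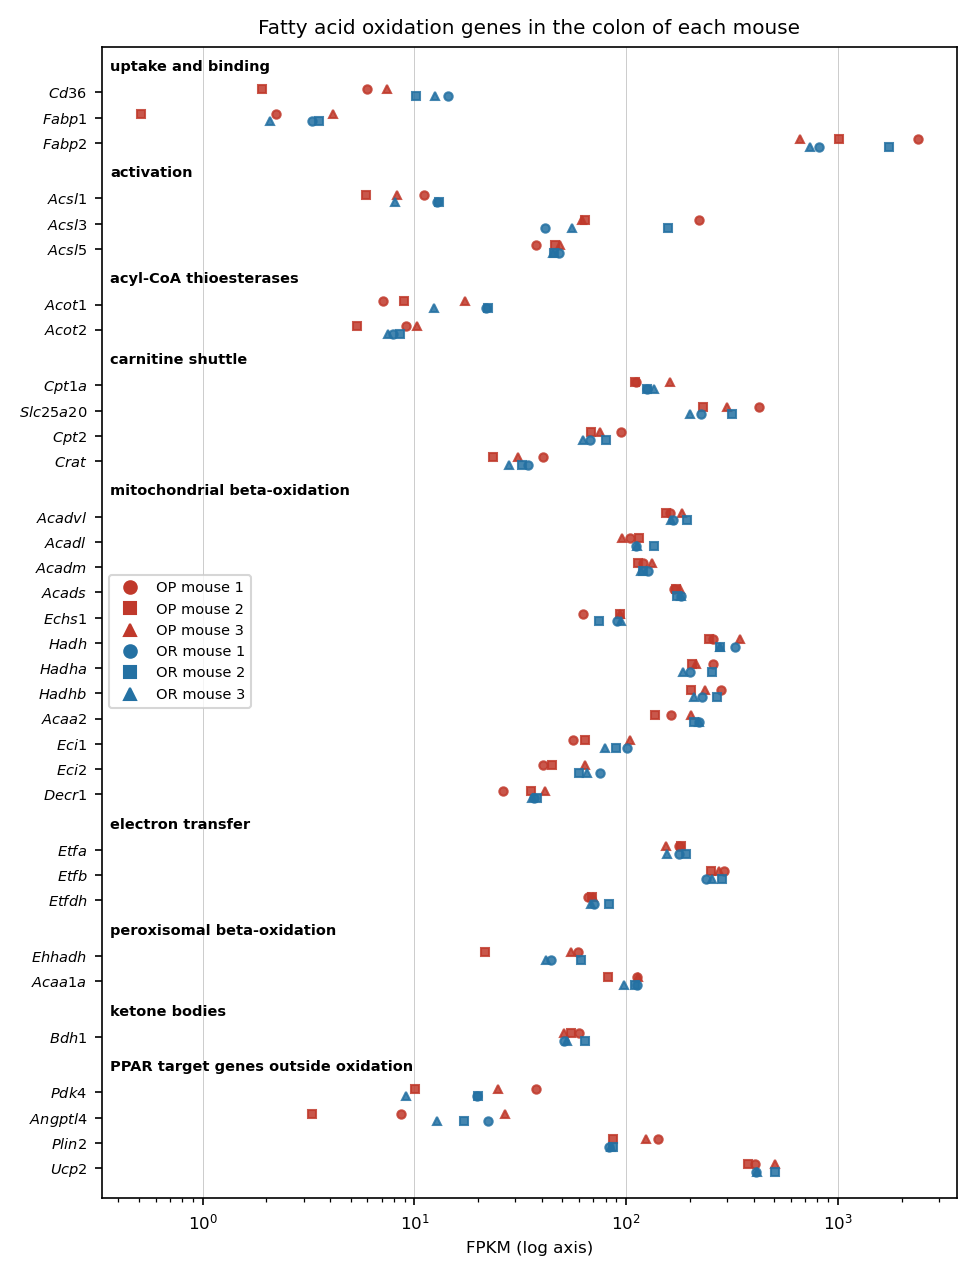
FPKM of the 34 genes (log axis) in each of the 3 OP mice (red) and 3 OR mice (blue), grouped by role, with a symbol for each mouse number. Red and blue points are interleaved in 31 genes; *Cd36* and *Acaa2* have all red points to the left and *Plin2* all red points to the right.

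Values are FPKM, that is, fragment numbers scaled to transcript length and to the fragments mapped in that library. They allow for transcript length and library size, but differences between mice also depended on further scaling of the libraries. FPKM values were compared as log2(FPKM + 1). The term "log2 difference" means OP minus OR on that scale, which understates changes of genes with low values. Their totals were 585350 to 600028 per mouse and 16287 to 16619 genes were above 0, and read depth is unknown because FPKM carry no read totals. With 3 mice against 3 the exact permutation test has 20 arrangements and cannot give a p below 0.1. Epithelial markers (10 listed) summed to 11127 to 14005 FPKM in OP mice and 10944 to 13504 FPKM in OR mice. The 10 colonocyte markers summed to 6856 to 21312 FPKM and 8512 to 20228 FPKM. Both sets were thus expressed in every mouse, but single colonocyte markers differed widely between mice. *Aqp8*, a colonocyte marker named after its values were seen, ranged from 10.1 to 1084 FPKM. A pair of libraries stood apart. OP mouse 1 held the lowest value of 54.4% of all genes tested, and median-of-ratios scaling (size factor 0.809 for this mouse, 0.984 to 1.098 for the others) moved the median log2 difference of all genes from -0.10 to 0.01. OP mouse 2 differed in genes of position and bile acid transport, named here after their values were seen: *Hoxb13*, a posterior Hox gene, was at 1.29, 46.9 and 0 FPKM in OP mice 1, 2 and 3 and at 0, 0 and 0.36 FPKM in OR mice 1, 2 and 3. *Slc51a*, a subunit of a bile acid exporter, was at 242, 6.44 and 287 FPKM in the OP mice and 194, 149 and 168 FPKM in the OR mice in the same order. *Hoxb13* was thus highest and *Slc51a* lowest in OP mouse 2, and the labels name the colon without a segment. The 7 distal Hox genes in the table summed to 9.38 to 82.5 FPKM in OP mice, 82.5 being that of OP mouse 2, and to 9.03 to 13.2 FPKM in OR mice. The high sum came from *Hoxb13* and *Hoxa13*, whereas *Hoxd10* went the other way, at 4.28, 0.04 and 5.36 FPKM in the OP mice and 6.80, 4.96 and 2.60 FPKM in the OR mice, and *Hoxd11* was also lowest in OP mouse 2, where it was listed at 0. Markers of small intestine enterocytes (9 of 10 in the table) summed to 75.8 to 227 FPKM and 129.6 to 284 FPKM.

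PPARα with RXR is known to bind a repeat of AGGTCA with 1 base between the copies, so the 250 bases before the annotated start (RefSeq, GRCm38.p6) were searched on both strands. A window was given for 30 of the 34 members (32 windows). The exact repeat AGGTCANAGGTCA was in 0 of these windows and in 0.0335% of 32851 windows of all genes. With the fourth base of each copy free, AGGNCANAGGNCA was in 1 member window, that of *Fabp1*, and in 0.338% of all windows. A single copy of AGGTCA was in 7 of the 32 windows (*Cd36*, *Fabp1*, *Cpt1a*, *Acadvl*, *Acadm*, *Echs1* and *Plin2*) and in 14% of all. A match is a description of letters and not of binding. The window of *Fabp1* is shown because it alone held the repeat, and those of *Cd36* and *Plin2* because these are members with a single copy whose groups did not overlap. Capitals mark the matches, which read TGACCT when the motif lies on the other strand.
Fabp1 (chr6:71199629-71199878, + strand): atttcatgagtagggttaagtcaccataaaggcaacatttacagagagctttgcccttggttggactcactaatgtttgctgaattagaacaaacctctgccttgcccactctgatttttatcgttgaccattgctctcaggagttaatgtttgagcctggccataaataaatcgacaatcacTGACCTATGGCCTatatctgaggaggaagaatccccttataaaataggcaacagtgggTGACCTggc
Cd36 (chr5:17835897-17836146, - strand): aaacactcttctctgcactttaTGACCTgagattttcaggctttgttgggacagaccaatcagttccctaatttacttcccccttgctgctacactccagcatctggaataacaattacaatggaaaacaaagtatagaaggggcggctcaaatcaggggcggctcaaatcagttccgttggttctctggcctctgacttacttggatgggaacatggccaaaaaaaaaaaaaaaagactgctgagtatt
Plin2 (chr4:86670060-86670309, - strand): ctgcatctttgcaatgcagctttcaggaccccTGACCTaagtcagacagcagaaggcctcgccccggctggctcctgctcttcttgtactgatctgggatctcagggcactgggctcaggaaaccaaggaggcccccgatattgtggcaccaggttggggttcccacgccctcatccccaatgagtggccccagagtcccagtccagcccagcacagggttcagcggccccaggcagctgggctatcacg
In *Fabp1* the match nearest to the start ended 3 bases before it, whereas the single matches of *Cd36* and *Plin2* ended 222 and 212 bases before the start.

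*Cd36*, which encodes the membrane protein that takes up long-chain fatty acids, was at 5.94, 1.90 and 7.45 FPKM in OP mice 1, 2 and 3 and at 14.4, 10.2 and 12.5 FPKM in OR mice 1, 2 and 3. Every OP mouse was below every OR mouse, and OP mouse 2 was the lowest by a wide margin, the next mouse being 3.13 times higher. The mean of the OR mice was 2.43 times that of the OP mice, and the log2 difference was -1.26 (SE 0.39, 95% interval -2.18 to -0.34). By limma-trend the unadjusted p was 0.0139 and the Benjamini-Hochberg adjusted p over all genes was 0.945, and the two-sided exact permutation p was 0.1. Without OP mouse 2 the log2 difference was -0.79, so the direction did not rest on that mouse but the size did. The unadjusted limma-trend p was then 0.01003. After median-of-ratios scaling the log2 difference of *Cd36* was -1.14. CD36 is also made by adipocytes, macrophages and capillary endothelium, and in bulk tissue fewer cells of a type and less RNA per cell cannot be told apart. Macrophage markers summed to 57.1 to 132 FPKM in OP mice and 130.1 to 159 FPKM in OR mice. By limma-trend 9 of the 10 were lower (unadjusted p below 0.05). The other, *Mertk*, was at 48.0, 24.3 and 41.7 FPKM in the OP mice and 32.85, 29.1 and 21.8 FPKM in the OR mice. Its log2 difference was 0.40, and it had the highest value of the 10 in each OP mouse. The sums therefore mix both directions. Of all genes tested 3.53% were lower by that measure, a share to set beside this count and those that follow. For blood endothelium the sums were 22.8 to 38.7 FPKM and 41.3 to 73.9 FPKM, with 10 of 12 lower. Adipocyte markers gave 65.7 to 220.2 FPKM and 142 to 532 FPKM, with 1 of 12 lower, and 5 of them (*Adipoq*, *Lep*, *Retn*, *Cfd* and *Plin1*) were listed at 0 in OP mouse 2. Fibroblast markers, given for comparison, summed to 133 to 212 FPKM and 297 to 446 FPKM, with 7 of 9 lower. The part of these cell types in the *Cd36* difference was not tested.

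The fatty acid-binding proteins carry fatty acids through the cytosol, and their genes sat at opposite ends of the range of levels. *Fabp2*, the intestinal form, had the highest level of all members at 2393, 1017 and 665 FPKM in the OP mice and 811, 1748 and 735 FPKM in the OR mice. OP mouse 1 and OR mouse 2 were the highest of their groups, and the groups overlapped widely (log2 difference 0.21, SE 0.51). *Fabp1*, the liver form, had the lowest level at 2.22, 0.51 and 4.13 FPKM and 3.29, 3.53 and 2.08 FPKM. Its log2 difference was -0.42 (SE 0.43) with all mice and 0.06 without OP mouse 2, where the next mouse was 4.08 times higher. The ratio of *Fabp2* to *Fabp1* ran from 161 in OP mouse 3 to 1994 in OP mouse 2, so these were not a pair that moved together.

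Long-chain acyl-CoA synthetases activate the fatty acid for every later step. *Acsl5*, known as the main intestinal form, was steady at 37.5, 46.0 and 48.5 FPKM in the OP mice and 48.2, 45.6 and 45.2 FPKM in the OR mice, a log2 difference of -0.08 (95% interval -0.40 to 0.24). *Acsl3*, the form of the endoplasmic reticulum and lipid droplets, was the most variable member at 221, 63.8 and 61.5 FPKM and 41.3, 158 and 55.5 FPKM. OP mouse 1 and OR mouse 2 were again far above the other 4 mice, and the coefficient of variation over the 6 mice was 72.2%, against 8.86% for *Acsl5*. *Acsl1* was the lowest of the synthetases at 11.1, 5.92 and 8.30 FPKM and 12.8, 13.1 and 8.12 FPKM, with a log2 difference of -0.40 (SE 0.27). The groups overlapped in all 3 synthetases.

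Acyl-CoA thioesterases undo activation by splitting the fatty acid from coenzyme A, *Acot1* in the cytosol and *Acot2* in the mitochondrion. *Acot1* was at 7.14, 8.89 and 17.2 FPKM in the OP mice and 21.8, 22.2 and 12.4 FPKM in the OR mice, with a log2 difference of -0.76 (SE 0.35) and an unadjusted limma-trend p of 0.06397. OP mouse 3 lay between the OR mice, so the groups overlapped. *Acot2* was at 9.10, 5.33 and 10.3 FPKM and 7.91, 8.58 and 7.47 FPKM, a log2 difference of -0.0016, and the groups overlapped there too. In reference transcripts 33.2% of the 50-base words of *Acot1* and 27.7% of those of *Acot2* also occur in other genes, mostly in each other, so the split of reads between them is uncertain.

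The carnitine shuttle moves the activated fatty acid across the inner mitochondrial membrane. *Cpt1a*, the carnitine palmitoyltransferase of the outer membrane and the known control point of the pathway, was at 111, 110.1 and 161 FPKM in the OP mice and 126, 125 and 135 FPKM in the OR mice. Means were 128 ± 29.2 FPKM (SD, n = 3) and 129 ± 5.72 FPKM (SD, n = 3), and the log2 difference of -0.04 had a 95% interval of -0.44 to 0.36. The OR mice were close together and lay inside the range of the OP mice. *Slc25a20*, the carnitine-acylcarnitine carrier, was at 422, 229 and 301 FPKM and 225, 317 and 201 FPKM, with OP mouse 1 and OR mouse 2 the highest of the 6 and overlapping groups (log2 difference 0.34, SE 0.26). *Cpt2*, which reforms the acyl-CoA inside, was at 94.9, 67.9 and 75.4 FPKM and 67.5, 80.4 and 62.6 FPKM, with the same 2 mice on top (log2 difference 0.17, SE 0.17). *Crat*, which joins carnitine to acetyl groups, ranged from 23.6 to 40.4 FPKM with a log2 difference of -0.02. The ratio of *Cpt1a* to *Cpt2* was between 1.17 in OP mouse 1 and 2.16 in OR mouse 3.

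Mitochondrial beta-oxidation and electron transfer, 15 members in all, formed an even block. Their summed level was 2229, 2083 and 2391 FPKM in OP mice 1, 2 and 3 and 2353, 2453 and 2221 FPKM in OR mice 1, 2 and 3, or 0.356% to 0.412% of all FPKM. OP mouse 2 had the lowest sum and OR mouse 2 the highest, and the groups overlapped. The median log2 difference of the 15 was -0.07 as deposited and 0.07 after median-of-ratios scaling, beside -0.10 and 0.01 for all genes tested, so its sign is set by the scaling. Of the 15, 12 lay within 0.25 of 0 on the log2 scale, beside 68.8% of all genes tested. Those outside were *Eci2* (-0.44), *Acaa2* (-0.40) and *Eci1* (-0.31).

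The acyl-CoA dehydrogenases take the first step, each for its own range of chain lengths. *Acads*, for short chains such as butyrate, was the steadiest of all members at 168, 171 and 179 FPKM in the OP mice and 181, 173 and 182 FPKM in the OR mice, a coefficient of variation of 3.30%. Its groups overlapped, and the log2 difference was -0.05 (95% interval -0.30 to 0.21). In the other 3 dehydrogenases the groups overlapped as well. *Acadvl*, for very long chains, ranged from 154 to 194 FPKM with a log2 difference of -0.06. *Acadm*, for medium chains, ranged from 113 to 132 FPKM with a log2 difference of 0.0032. *Acadl*, for long chains, ranged from 95.4 to 136 FPKM with a log2 difference of -0.19. *Acads* stood above *Acadm* and *Acadl* in 6 of 6 mice and above *Acadvl* in 4.

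Later steps of the cycle gave the second member whose groups were apart. *Acaa2*, the mitochondrial thiolase that releases acetyl-CoA, was at 162, 137 and 201 FPKM in OP mice 1, 2 and 3 and at 220.3, 210.2 and 220.3 FPKM in OR mice 1, 2 and 3. All OP mice lay below all OR mice, which were close together. Means were 167 ± 32.7 FPKM (SD, n = 3) and 217 ± 5.81 FPKM (SD, n = 3), a log2 difference of -0.40 (SE 0.16, 95% interval -0.77 to -0.02). By limma-trend the unadjusted p was 0.0417 and the Benjamini-Hochberg adjusted p was 0.945, and the exact permutation p was 0.1. Without OP mouse 2 the log2 difference was -0.26, with an unadjusted limma-trend p of 0.124. After median-of-ratios scaling its log2 difference was -0.26 and the groups overlapped. *Eci2*, an enoyl-CoA isomerase for unsaturated fatty acids, was at 40.4, 44.6 and 63.9 FPKM and 75.1, 59.7 and 65.2 FPKM, overlapping as deposited and apart after scaling (log2 difference -0.44, then -0.31). In *Eci2* 7.19% of the 50-base words are shared with *Eci3*. *Eci1*, the other isomerase, ranged from 56.1 to 104 FPKM with a log2 difference of -0.31 and overlapping groups. The groups also overlapped in the remaining 3 enzymes of this kind. *Echs1*, a hydratase, ranged from 62.4 to 94.9 FPKM with a log2 difference of -0.08. *Hadh*, a hydroxyacyl-CoA dehydrogenase, ranged from 246 to 346 FPKM with a log2 difference of -0.07. *Decr1*, a reductase for polyunsaturated chains, ranged from 26.3 to 41.5 FPKM with a log2 difference of -0.12.

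*Hadha* and *Hadhb* encode the alpha and beta subunits of the mitochondrial trifunctional protein, which carries out the last 3 steps on long chains. *Hadha* was at 256, 205 and 214 FPKM in the OP mice and 201, 254 and 186 FPKM in the OR mice. *Hadhb* was at 281, 203 and 235 FPKM and 227, 267 and 209 FPKM. OP mouse 1 and OR mouse 2 were the highest in both genes, the groups overlapped, and the log2 differences were 0.08 and 0.03. The ratio of *Hadha* to *Hadhb* stayed between 0.885 and 1.01 in the 6 mice, a coefficient of variation of 5.07%, against 13.4% for *Hadha* and 13.2% for *Hadhb* alone. Of the 50-base words of *Hadhb*, 62.4% also occur in other genes, nearly all in *Gm13910*. The genes lie head to head, their annotated starts 273 bases apart on opposite strands of chromosome 5, and the 250 bases before the *Hadhb* start, which lie between them, are shown, with a GC content of 58.8% and no letters marked.
Hadhb (chr5:30155003-30155252, + strand): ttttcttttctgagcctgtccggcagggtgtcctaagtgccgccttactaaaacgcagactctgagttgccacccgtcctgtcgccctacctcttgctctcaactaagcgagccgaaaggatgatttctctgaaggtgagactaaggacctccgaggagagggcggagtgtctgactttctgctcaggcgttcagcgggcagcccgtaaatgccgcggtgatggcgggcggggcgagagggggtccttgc

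Electrons from the dehydrogenases pass through the electron transfer flavoprotein, subunits *Etfa* and *Etfb*, to its dehydrogenase *Etfdh*. *Etfa* ranged from 155 to 192 FPKM over the 6 mice with a log2 difference of -0.04. *Etfb* ranged from 238 to 291 FPKM with a log2 difference of 0.08, and was 1.33 to 1.78 times *Etfa* in each mouse. *Etfdh* ranged from 65.9 to 82.7 FPKM with a log2 difference of -0.11. The groups overlapped in all 3. In *Etfb* 67.3% of the 50-base words are shared with *Gm45233*, so its level is less certain.

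**Figure D2:**
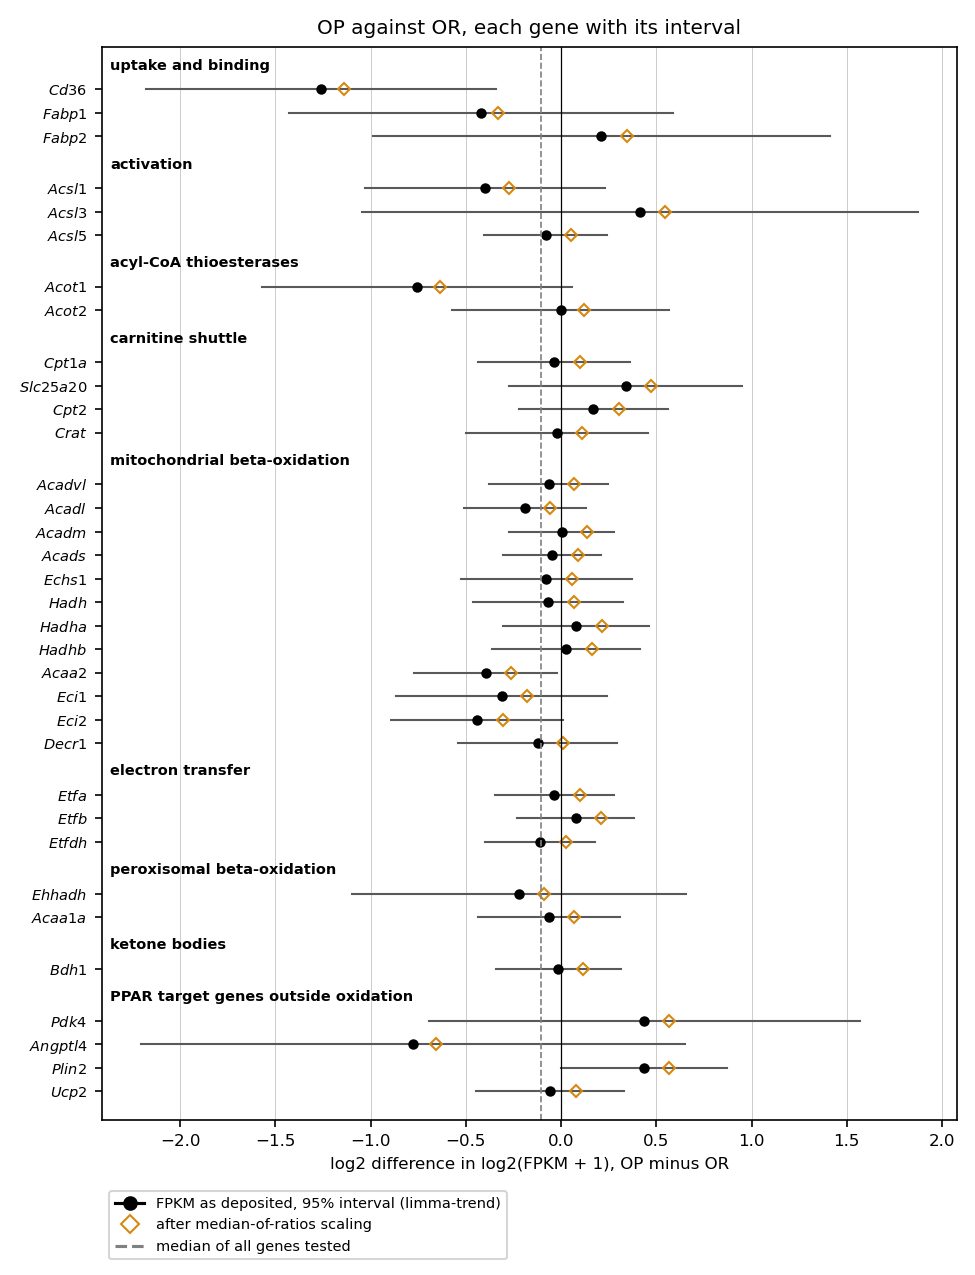
Log2 difference (OP minus OR) of each gene as deposited (black points) with its 95% limma-trend interval (lines), and after median-of-ratios scaling (open diamonds). The dashed line is the median of all genes tested, -0.10; only the intervals of *Cd36* and *Acaa2* miss 0 and every diamond lies to the right of its point.

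Peroxisomes shorten chains that mitochondria handle poorly. *Ehhadh*, the bifunctional enzyme of that pathway, was at 59.2, 21.5 and 54.9 FPKM in the OP mice and 43.97, 61.3 and 41.7 FPKM in the OR mice. OP mouse 2 was the lowest, and the other 2 OP mice lay within the OR range (log2 difference -0.22, SE 0.38, and 0.23 without OP mouse 2). *Acaa1a*, a peroxisomal thiolase, was at 113, 82.4 and 114 FPKM and 112, 110.4 and 97.6 FPKM, again lowest in OP mouse 2 and overlapping (log2 difference -0.06). It shares 34% of its 50-base words with its copy *Acaa1b*, which was at 194, 2.74 and 97.4 FPKM and 46.1, 74.5 and 23.7 FPKM and is named after its values were seen.

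*Bdh1*, the ketone body dehydrogenase that interconverts acetoacetate and 3-hydroxybutyrate, was at 59.6, 54.8 and 50.6 FPKM in the OP mice and 50.9, 64.1 and 52.3 FPKM in the OR mice. The groups overlapped, and the log2 difference was -0.02 (95% interval -0.34 to 0.31).

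The 4 remaining members are PPAR targets that act beside oxidation. *Plin2*, which coats lipid droplets, was at 141, 86.5 and 125 FPKM in OP mice 1, 2 and 3 and at 83.3, 86.2 and 85.01 FPKM in OR mice 1, 2 and 3. Every OP mouse was above every OR mouse, but OP mouse 2 only just. Means were 117 ± 27.8 FPKM (SD, n = 3) and 84.8 ± 1.48 FPKM (SD, n = 3), a log2 difference of 0.43 (95% interval -0.0018 to 0.87). By limma-trend the unadjusted p was 0.0507 and the Benjamini-Hochberg adjusted p was 0.945, with an exact permutation p of 0.1. Without OP mouse 2 the log2 difference was 0.64, with an unadjusted limma-trend p of 0.00194. Without OP mouse 1 the log2 difference was 0.29, with an unadjusted limma-trend p of 0.146. With any other mouse left out, the unadjusted limma-trend p was between 0.0932 and 0.133. After median-of-ratios scaling with all mice the log2 difference of *Plin2* was 0.57, and the groups then overlapped.

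*Pdk4*, a kinase that turns off pyruvate oxidation, was at 37.4, 10.03 and 24.9 FPKM in the OP mice and 19.7, 19.99 and 9.17 FPKM in the OR mice. OP mice 1 and 3 were above all OR mice and OP mouse 2 was near the lowest, so the log2 difference was 0.44 (SE 0.48) with it and 0.94 without it. Without that mouse the unadjusted limma-trend p was 0.0357. Without OP mouse 1 instead, the log2 difference of *Pdk4* was 0.04 and the unadjusted limma-trend p was 0.931. *Angptl4*, a secreted inhibitor of lipoprotein lipase, was at 8.63, 3.30 and 26.7 FPKM and 22.2, 17.1 and 12.7 FPKM. It was lowest in OP mouse 2 and highest in OP mouse 3, with overlapping groups (log2 difference -0.78, SE 0.61, and -0.14 without OP mouse 2). *Ucp2*, a carrier of the inner mitochondrial membrane, was the second highest member at 405, 376 and 505 FPKM and 413, 506 and 414 FPKM, with overlapping groups and a log2 difference of -0.06.

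**Figure D3:**
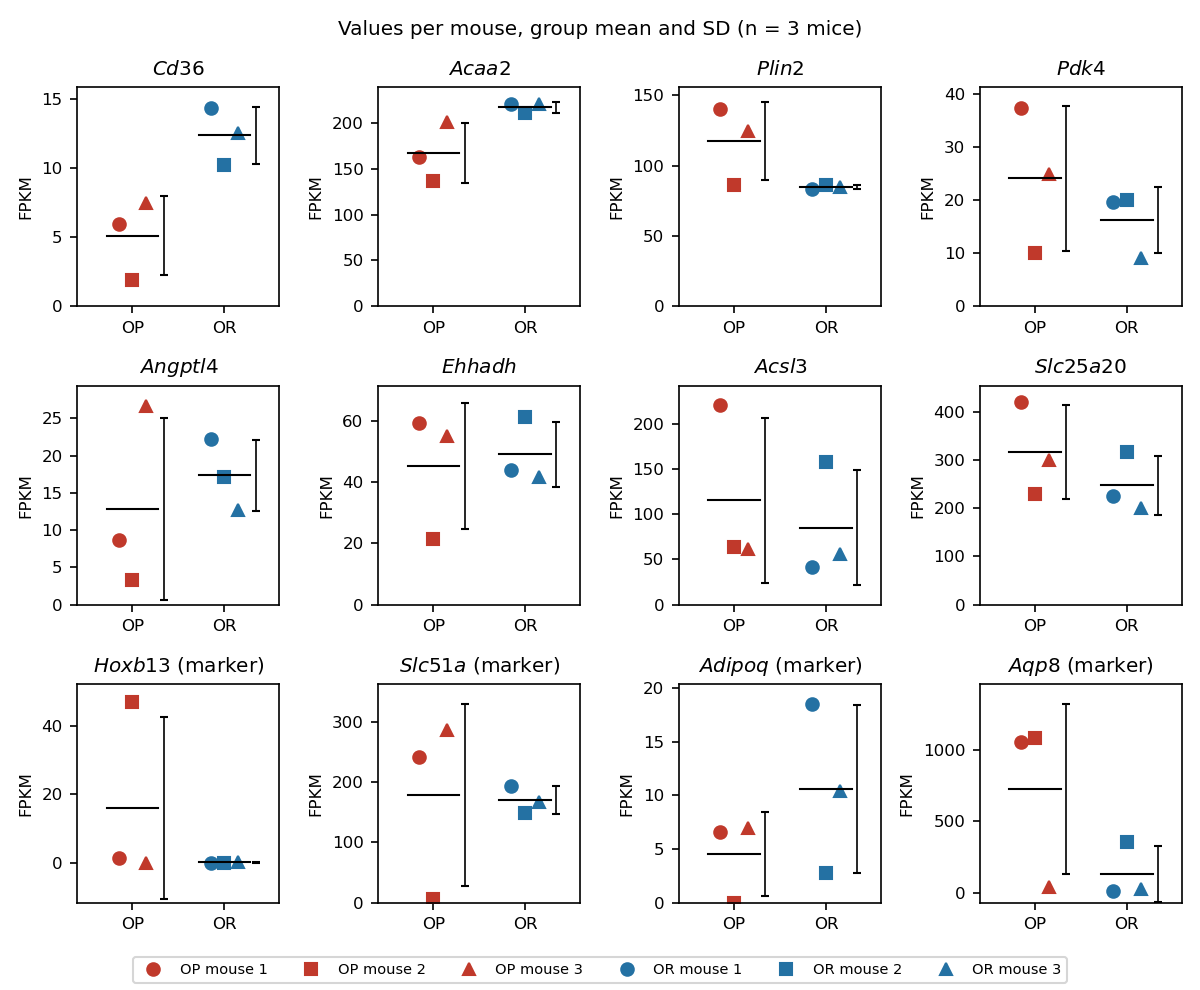
FPKM of 8 members and 4 marker genes in each mouse (points), with the group mean (horizontal line) and SD (error bar), n = 3 mice a group. *Cd36* and *Acaa2* are lower and *Plin2* higher in every OP mouse, OP mouse 2 is low in *Angptl4* and *Ehhadh* and alone high in *Hoxb13*, and OP mouse 1 and OR mouse 2 are high in *Acsl3* and *Slc25a20*.

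Over the 34 genes the median log2 difference was -0.06, beside -0.10 for all genes tested. Of the 34, 10 were above 0 and 24 below, beside 4045 above and 9475 below among all genes tested. After median-of-ratios scaling the median was 0.07, beside 0.01 for all genes. Then 24 members were above 0 and 10 below, beside 6959 above and 6561 below among all genes. The sign of the median therefore depends on the scaling, and 14 members changed sign with it. Within 0.25 of 0 lay 64.7% of the members and 68.8% of all genes. In every alternative tried, 5 members kept a positive difference (*Slc25a20*, *Cpt2*, *Etfb*, *Pdk4* and *Plin2*) and 8 a negative one (*Cd36*, *Acsl1*, *Acot1*, *Acadl*, *Acaa2*, *Eci1*, *Eci2* and *Angptl4*).

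The members differed among themselves in how much they varied from mouse to mouse. The coefficient of variation over the 6 mice had a median of 13.2% in the 15 genes of mitochondrial beta-oxidation and electron transfer (3.30% for *Acads* to 23.9% for *Eci1*), and 29.0% in the other 19 (8.86% for *Acsl5* to 72.2% for *Acsl3*). In 11 of the 19 it was above the highest of the 15. It was 21.4% over all genes tested and 14.5% over the 4365 genes with a mean of at least 20 FPKM, a level that all 15 and 28 of the 34 reached.

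**Figure D4:**
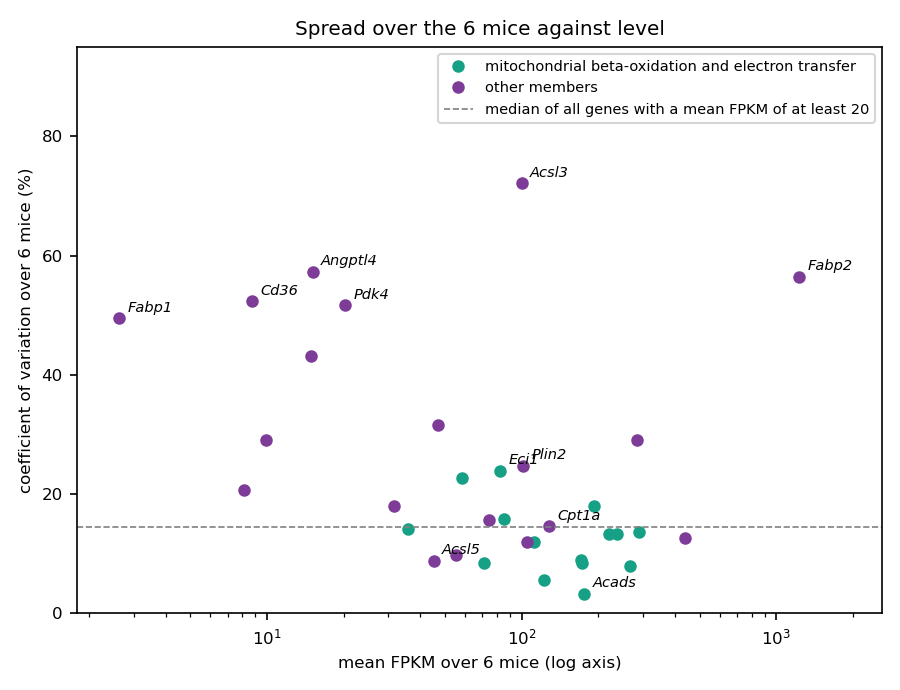
Coefficient of variation over the 6 mice against mean FPKM (log axis) for the 15 genes of mitochondrial beta-oxidation and electron transfer (green) and the other 19 members (purple). Green points lie between 3.30% and 23.9%, around the dashed median of 14.5% for all genes of at least 20 FPKM, and purple points reach 72.2%.

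A few mice held many of the extreme values. OP mouse 2 was lowest in 15 of the 34 members, against 17.3% of all genes tested, and in 13 after median-of-ratios scaling, against 19.3%. In *Cd36*, *Fabp1* and *Angptl4* its value was less than 0.5 of that of every other mouse, which held for 1.87% of all genes. Averaged over the 19 members outside mitochondrial beta-oxidation and electron transfer, its log2(FPKM + 1) was 0.53 below the mean of the 6 mice, and over those 15 it was 0.12 below. OP mouse 1 and OR mouse 2 held the 2 highest values in 9 members (*Fabp2*, *Acsl3*, *Slc25a20*, *Cpt2*, *Hadha*, *Hadhb*, *Etfb*, *Ehhadh* and *Bdh1*), against 5.13% of all genes, and in 19 after median-of-ratios scaling, against 12.2%. The colonocyte gene *Car1*, a carbonic anhydrase named after its values were seen, was also highest in these mice, at 14584, 1054 and 4836 FPKM in the OP mice and 5255, 15723 and 6339 FPKM in the OR mice. Whether the piece of colon or its cell make-up has a part in these differences between mice was not tested.

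**Figure D5:**
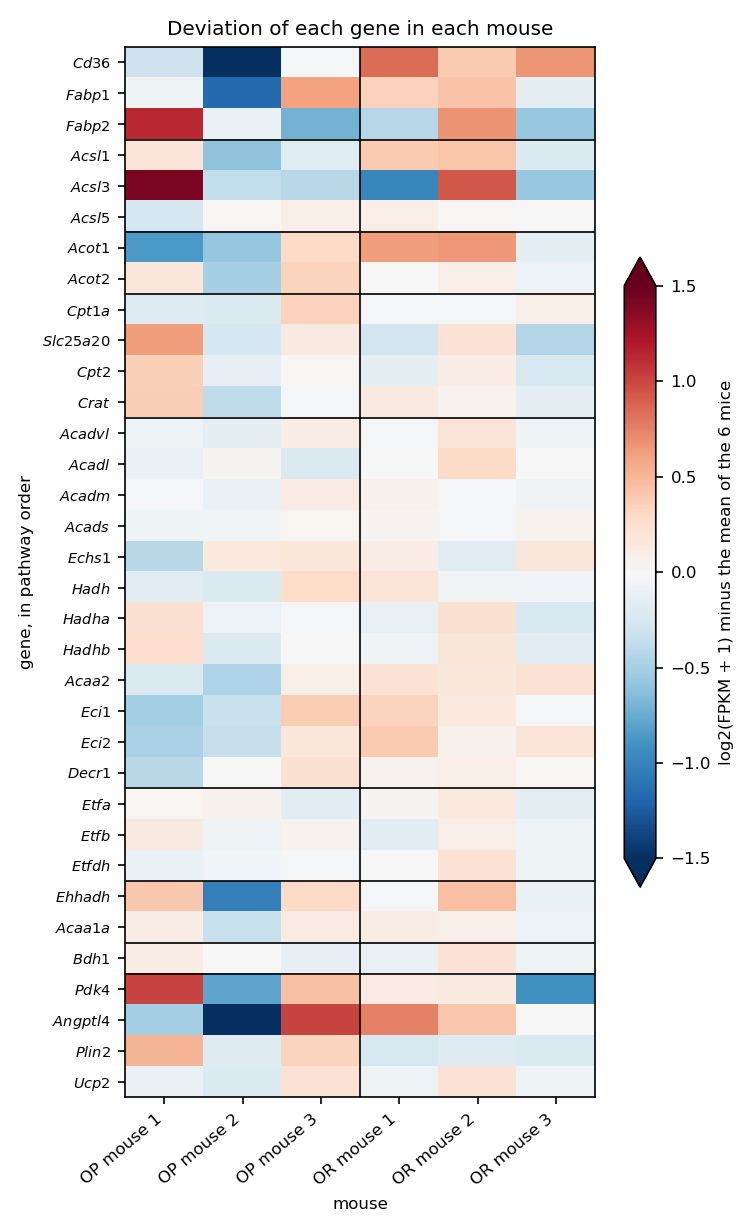
Log2(FPKM + 1) of each gene in each mouse minus the mean of the 6 mice, from blue (lower) to red (higher), genes in pathway order with lines between roles. Blue is deepest in OP mouse 2 for *Cd36* and *Angptl4*, OP mouse 1 and OR mouse 2 share red in *Fabp2* and *Acsl3*, and the mitochondrial rows are pale.

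The wider pathway held no called gene either. Of 111 further genes in 9 lists, 108 were in the table and 99 were tested. Of the 99, 0 passed the study's thresholds, against 0.0222% of all genes tested. At an unadjusted limma-trend p below 0.05, 1 was higher, against 0.503% of all genes, and 0 were lower, against 3.53%. The one was *Acad11*, an acyl-CoA dehydrogenase, at 69.4, 49.95 and 51.4 FPKM in the OP mice and 38.96, 49.9 and 30.6 FPKM in the OR mice. Its log2 difference was 0.52 (SE 0.21, unadjusted p = 0.0435, Benjamini-Hochberg adjusted p = 0.945), and each OP mouse exceeded each OR mouse, OP mouse 2 by a small margin. All OP mice were also above in *Dgat1*, the final enzyme of triglyceride synthesis (log2 difference 0.27), and below in *Acsl4*, a synthetase that prefers arachidonic acid (-0.34, named after its values were seen). Of the 99, all OP mice were thus above in 2 (against 1.63% of all genes) and below in 1 (against 6.81%). The median log2 difference of the 99 was -0.07.

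By list, the genes of lowest unadjusted p are named here, and 0 of those other than *Acad11* were below 0.05. Signs are those of the values as deposited, which median-of-ratios scaling shifted upwards for all genes by a median of 0.11. As deposited, 4045 of all 13520 genes tested were above 0 and 9475 below, so most genes of any kind were below. Among 10 PPAR receptors and partners, 4 were above 0 and 6 below, led by *Ppard*, a fatty acid-sensing receptor, at 0.30. Among 14 other genes of uptake, binding and activation, 11 were below 0, led by the heart-type binding protein *Fabp3* at -0.52. Among 13 other thioesterase and carnitine genes, 8 were above 0, led by *Mlycd*, which removes the malonyl-CoA that blocks CPT1, at 0.21. Of 14 other mitochondrial genes 12 were below 0. Of 19 other peroxisomal genes 10 were above 0. Of 5 other ketone body genes 3 were above 0 and 2 below. Of 14 lipid droplet and lipolysis genes 10 were below 0, although *Dgat1* was above. Of 5 other pyruvate dehydrogenase kinases and uncouplers 3 were below 0, led by *Slc25a27* at -0.16. Of 5 omega-oxidation genes 4 were below 0, and *Cyp4b1*, a fatty acid hydroxylase, was at 188, 14.2 and 235 FPKM and 213, 194 and 71.0 FPKM, again lowest in OP mouse 2.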

How the data were processed

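Colon mRNA of 3 OP and 3 OR mice was sequenced from strand-specific libraries. According to the paper's methods and the labels, the authors filtered reads with SOAPnuke, aligned them with Bowtie2 to a reference gene set and quantified genes with RSEM; these sources give different versions, and the submitters' processing notes name HISAT2 (2.0.4) and the build GRCm39. The authors deposited FPKM values to 2 decimals, 1 column per mouse, with no coordinates and no read totals, so the depth is unknown. Groups and mouse numbers come from the labels, which number the samples. DESeq2, the authors' tool, needs counts and was not run.

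Genes with at least 0.5 FPKM in at least 3 mice were compared as log2(FPKM + 1) by limma-trend (limma 3.58.1, R 4.3.3) with Benjamini-Hochberg adjustment over all genes tested, and single members by two-sided exact permutation tests (SciPy 1.17.1). The fit was tested on simulated data. Named are all 34 members and, of 9 lists of other pathway genes, up to 3 of lowest p each; some are not reported here. The members and lists, with 12 marker lists, were chosen with earlier results of these data known. The 50-base words were counted in reference transcripts (GENCODE M21). Upstream sequences are from RefSeq (GRCm38.p6), another build than that of the authors, matched by symbol. Same-numbered mice did not deviate together (mean correlation -0.0765, against 0.0394 for different numbers), so the numbers were not used as pairs. The alternatives were median-of-ratios scaling, TPM, a pseudocount of 0.1, no filter, at least 1 FPKM in all 6 mice, no trend, weights per sample, a block for replicate number, leaving out each mouse in turn, and a q-value below 0.05.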

Additional observations from a re-analysis of the deposited data

How the results depend on the processing

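Under each alternative run, 0 members passed the study's thresholds, and 471 of 475 member values recomputed under 14 of them moved by less than 1 SD; the other 4 moved with median-of-ratios scaling, to 0.14 for *Acadm*, 0.09 for *Acads*, 0.21 for *Etfb* and 0.02 for *Etfdh*. The lowest Benjamini-Hochberg adjusted p of a member in limma ran from 0.364, without OP mouse 3, to 1. All genes called lower in OP mice numbered 3 as deposited, 5 with sample weights, 2 without trend and 0 with median-of-ratios scaling, TPM, a pseudocount of 0.1, no filter, at least 1 FPKM in all 6 mice, or a q-value below 0.05, and 0 to 1 with a mouse left out. Members lower at an unadjusted p below 0.05 numbered 2, against 1 with median-of-ratios scaling and 1 without trend, 3 with sample weights, and 1 to 6 with a mouse left out. The 6, without OP mouse 3, were *Cd36*, *Acot1*, *Acaa2*, *Eci1*, *Eci2* and *Angptl4*, where 8.2% of all genes were lower. Members higher numbered 0, against 1 with TPM and 0 to 2 with a mouse left out, the 2 being *Pdk4* and *Plin2* without OP mouse 2, where 1.28% of all genes were higher. With the replicate block, which pairs mice by number, all genes called lower numbered 0 and members lower 1. The median log2 difference of the 15 mitochondrial members moved from -0.07 to 0.067 with median-of-ratios scaling, and that of the 34 members ran from -0.14 to 0.03 with a mouse left out. In counts added after seeing the data, all OP mice lay above all OR mice in 0 members after median-of-ratios scaling and in 1 to 5 with a mouse left out, the 5 being without OR mouse 2, where this held for 4.76% of all genes, and below in 2 to 12, the 12 being without OP mouse 3, where this held for 23.1% of all genes. The causes were not tested. With 3 mice a group and unknown depth, small differences were not detectable, and counting error cannot be given.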

Other observations

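Other cell types also varied between mice. The 8 goblet cell markers summed to 1133, 5093 and 2081 FPKM in OP mice 1, 2 and 3 and to 1826, 5186 and 7327 FPKM in OR mice 1, 2 and 3, lowest in OP mouse 1. Of the 8, 2 were lower in OP mice (unadjusted limma-trend p below 0.05), against 3.53% of all genes tested. The 10 markers of crypt proliferation summed to 110.4, 205 and 169 FPKM and 182, 217 and 184 FPKM, again lowest in OP mouse 1, with 0 past that p in either direction. Smooth muscle markers gave 1573 to 2422 FPKM in OP mice and 1924 to 3507 FPKM in OR mice, and markers of skeletal and cardiac muscle 14.3 to 24.2 FPKM and 20.1 to 43.1 FPKM, of which 2 of 9 passed the filter on low values.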
